A study of Homo sapiens with 2 samples.

Results

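Chromosome 19 of the human genome is rich in zinc finger genes, and 240 of its 1451 protein-coding genes (16.5%) had a RefSeq symbol made of ZNF and a number. These 240 were the members described here, out of 19974 protein-coding genes on the 23 chromosomes of the domain lists and out of 477 ZNF genes of that naming genome-wide (50.3% of them on this chromosome). They were chosen by symbol and position alone and placed in a domain by the middle of the gene record. The domains came from Hi-C, an assay of which pieces of chromatin touch in the nucleus, and the study asked how a lipid load alters that folding in HepG2, an established line from a human liver cancer. Cells of the PA+OA group were kept for 48 h with oleic acid at 240 µM and palmitic acid at 120 µM. Cells of the mock group were kept for the same time with DMSO diluted 1 to 1000. Both were grown in DMEM with serum, and the labels name BSA free of fatty acids in the treatment medium without settling whether the mock medium held it. Each group had 1 library and 1 list of domains, so every difference given here is one between 2 lists, without a replicate check or a test. Read depth is unknown, and domain lists hold no expression with which to check the cell line.

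Zinc finger proteins of this family bind DNA through arrays of C2H2 fingers, short folds held by a zinc ion. Many also carry a KRAB domain, which recruits the corepressor TRIM28 and, through it, the histone methyltransferase SETDB1 and heterochromatin proteins, and their best known targets are transposable elements. The genes arose largely by tandem duplication, so relatives stand side by side in clusters. A topologically associating domain is a segment of chromosome that folds mostly onto itself, and its edges are called boundaries.

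Members lay in kept, split, joined and shifted domains by cluster, and the share outside kept domains was near that of all genes and below that of the other genes of the chromosome. The lists placed 232 of the 240 members, since both ended at 58240000 and 8 members lay beyond. Of the 232, 94 (40.5%) lay in a mock domain that was kept, with both edges matched within 1 bin of 40 kb and no PA+OA boundary inside. A further 74 (31.9%) lay in a mock domain that was split by PA+OA boundaries, 27 (11.6%) in mock domains that were joined into a longer PA+OA domain, and 37 (15.9%) in mock domains with 1 matched edge, called shifted. None lay in a domain with no matched edge. The 138 members outside kept domains were 59.5% of those placed, against 73.6% of the other genes of chromosome 19 and 58.9% of all protein-coding genes. All 94 kept members had the very same domain coordinates in both lists. These counts rest on 11 mock domains and 13 PA+OA domains that hold members, so a single domain decides the class of up to 43 genes.

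**Figure D1:**
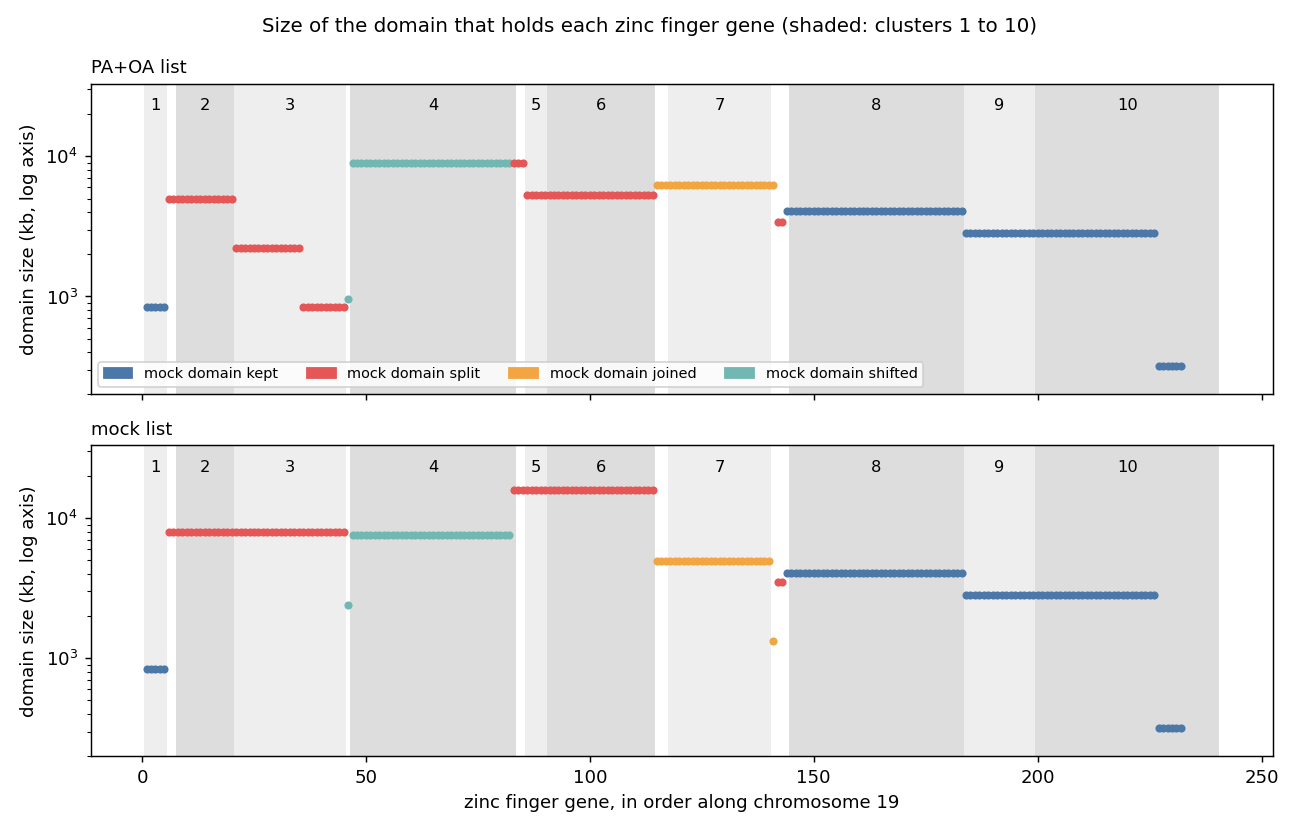
Size in kb, on a log axis, of the domain that holds each placed zinc finger gene, in order along chromosome 19, in the PA+OA list (upper panel) and the mock list (lower panel). Colours give the class of the mock domain and grey bands mark clusters 1 to 10. Clusters 1, 8, 9 and the placed genes of cluster 10 stand at the same height in both panels, clusters 2, 3, 5 and 6 stand lower in the PA+OA panel, and cluster 7 and all but the last gene of cluster 4 stand higher there.

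Members fell into 10 clusters, defined as runs of at least 5 members whose middles were no more than 500 kb apart. The clusters held 228 members (95%), and 12 stood outside them: ZNF557, ZNF358, ZNF333, ZNF536, ZNF507, ZNF546, ZNF574, ZNF526, ZNF296, ZNF541, ZNF114 and ZNF473. Counted from the short arm, cluster 1 held 5 members from ZNF554 to ZNF77, cluster 2 held 13 from ZNF414 to ZNF846, cluster 3 held 25 from ZNF653 to ZNF791, and cluster 4 held 37 from ZNF101 to ZNF254. On the long arm, cluster 5 held 5 from ZNF302 to ZNF792, cluster 6 held 24 from ZNF565 to ZNF573, cluster 7 held 23 from ZNF575 to ZNF180, cluster 8 held 39 from ZNF175 to ZNF331, cluster 9 held 16 from ZNF628 to ZNF835, and cluster 10 held 41 from ZNF264 to ZNF446. Their density ranged from 8.4 members per Mb in cluster 4 to 45.1 in cluster 1. Clusters 1 and 5 held no other protein-coding gene between their first and last member. Cluster 4 held 2, while cluster 9 held 26, more than its own 16 members. The gene record had a median of 23.1 kb in members, against 12.8 kb in the other genes of the chromosome. Within the clusters it ran from a median of 11.1 kb in cluster 5 to 35.1 kb in cluster 6. The shortest record was that of ZNF580 (2.47 kb) and the longest that of ZNF536 (488 kb), a gene of neural tissue that stands in no cluster.

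The clusters also differed in how their genes are turned. A strand was given for 210 members, 114 on the plus and 96 on the minus strand. Cluster 2 had 2 members on the plus strand and 10 on the minus strand, and cluster 10 had 25 on the plus and 13 on the minus strand. Neighbours with a known strand pointed the same way in 21 of 26 pairs in cluster 8, against 2 of 11 pairs in cluster 9 and 9 of 21 in cluster 6. The median step between neighbouring middles was shortest in cluster 1, at 26.9 kb, and longest in cluster 4, at 104.1 kb.

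**Figure D2:**
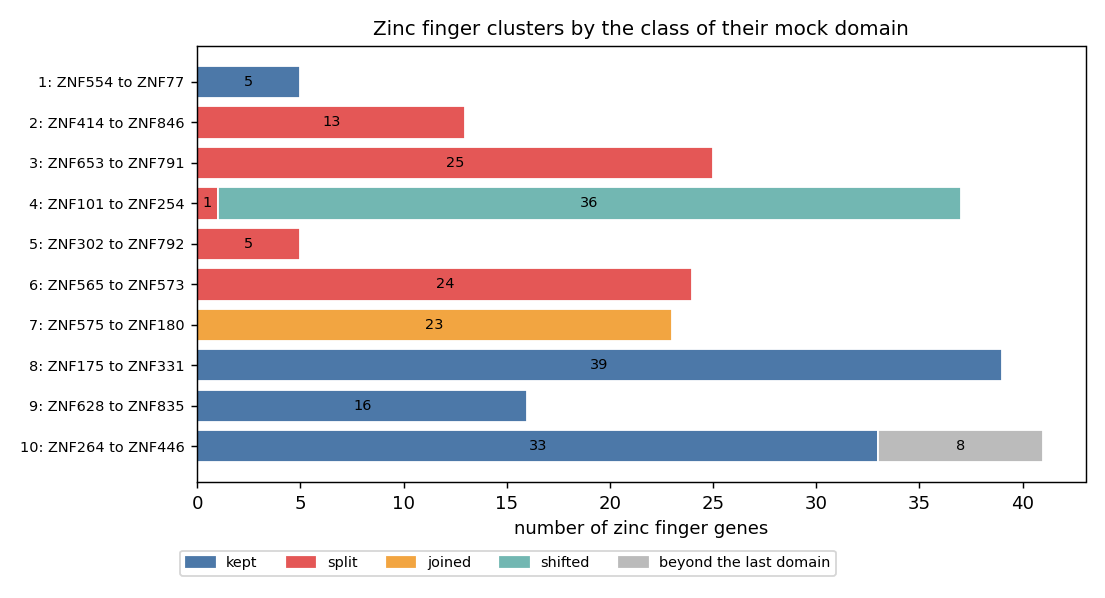
Number of zinc finger genes in each of the 10 clusters, coloured by the class of the mock domain that holds them. Clusters 1, 8 and 9 are wholly in kept domains, and cluster 10 is in kept domains with 8 genes beyond the last domain of both lists. Clusters 2, 3, 5 and 6 are wholly in split mock domains.

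Domains of clusters 1, 8, 9 and 10 were equal in both lists. Cluster 1 lay in a domain of 840 kb from 2440001 to 3280000, with 5 members among 21 protein-coding genes. Its record ends stood 380 kb from the boundary before it and 335 kb from the boundary after it. Cluster 8 lay, together with ZNF473, in a domain of 4080 kb from 49680001 to 53760000, which held 40 members among 127 genes. ZNF473 encodes a protein of histone mRNA processing and had its middle 357 kb from the boundary at 49680000. The last member of cluster 8, the imprinted gene ZNF331, had its middle 218 kb from the boundary at 53760000. Cluster 9 and the larger share of cluster 10 filled a domain of 2840 kb from 55080001 to 57920000 with 43 members among 104 genes, the most members of any domain. The next domain, of 320 kb from 57920001 to 58240000, was the smallest to hold members, and there they made up 6 of 9 genes (66.7%), the highest share of any domain. These were ZNF418, ZNF256, ZNF606, ZNF135, ZNF329 and ZNF274. ZNF274 encodes a protein known for bringing SETDB1 to other zinc finger genes.

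The boundary at 57920000, present in both lists, passed between neighbouring genes of cluster 10. The record of ZNF417 ended 3.41 kb before it and that of ZNF418 began 1.88 kb after it. Distances below 40 kb are finer than the bins of the lists and describe the listed position only. ZNF256 and ZNF814 had their middles 24.3 and 32.7 kb from the same position. The record of ZNF544 spanned 58240000, where both lists ended, so the middle of this gene was not placed and its start was. The other unplaced members were ZNF8, ZNF497, ZNF837, ZNF584, ZNF132, ZNF324 and ZNF446. Cluster 10 thus ran across 2 listed edges in each list.

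On the short arm, the PA+OA list had 3 domains where the mock list had 1 over clusters 2 and 3. In the mock list, 40 members from ZNF557 to ZNF791 shared 1 domain of 7960 kb, from 5040001 to 13000000, among 230 genes. In the PA+OA list, 15 of them, from ZNF557 to ZNF846, lay in 4920 kb, 15 from ZNF653 to ZNF625 lay in 2200 kb, and 10 from ZNF136 to ZNF791 lay in 840 kb. The first of the added boundaries, at 9960000 inside the collagen gene COL5A3, fell in the gap between clusters 2 and 3, 193 kb from the middle of ZNF846 and 1535 kb from that of ZNF653. The second, at 12160000, fell inside cluster 3. The nearest mock boundary was 840 kb away, at 13000000. Of the 11 boundaries of chromosome 19 that were found in 1 list only, this was the only one inside a cluster. The clusters spanned 14.1 Mb, a length equal to 24.2% of the 58.24 Mb listed. That span includes the end of cluster 10, beyond the last listed edge, so the share of the listed length is slightly lower.

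The boundary at 12160000 stood between ZNF625, whose record ended 3.27 kb before it on the minus strand, and ZNF136, whose record began 3.1 kb after it on the plus strand. The genes point away from each other, so that their start sites, 6.36 kb apart, lay on either side of the listed position and within 1 bin of it. In the PA+OA list these neighbours lay in different domains, and in the mock list in the same one. ZNF20, on the minus strand, had its middle 24.1 kb from this boundary. Before it, cluster 3 had 15 members, 8 on the plus strand, 6 on the minus strand and 1 with no strand given. After it, the 10 members comprised 2 on the plus strand, ZNF136 and ZNF791, and 8 on the minus strand, from ZNF44 to ZNF490. The promoters of the pair are shown because this boundary lies between them. They run from 250 bases before the start site to 50 bases after it, 5′ to 3′ on the strand of the gene, from RefSeq on GRCh38.p14, at chr19:12156685-12156984 on the minus strand and chr19:12162846-12163145 on the plus strand. Capitals mark CCCTC or its reverse complement GAGGG, a short motif that the boundary protein CTCF is named after.
ZNF625: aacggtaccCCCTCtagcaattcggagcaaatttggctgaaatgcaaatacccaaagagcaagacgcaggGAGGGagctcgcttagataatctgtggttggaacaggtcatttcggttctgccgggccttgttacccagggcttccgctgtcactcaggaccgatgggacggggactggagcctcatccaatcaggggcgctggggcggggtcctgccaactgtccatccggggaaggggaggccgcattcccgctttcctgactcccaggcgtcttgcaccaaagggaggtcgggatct
ZNF136: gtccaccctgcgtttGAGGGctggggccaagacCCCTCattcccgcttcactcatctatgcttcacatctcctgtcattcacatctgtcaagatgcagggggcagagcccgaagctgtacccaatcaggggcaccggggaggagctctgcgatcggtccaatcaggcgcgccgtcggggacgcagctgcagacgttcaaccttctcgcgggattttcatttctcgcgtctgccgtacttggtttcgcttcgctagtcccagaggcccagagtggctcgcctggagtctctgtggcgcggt

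Each of these promoters held the motif 2 times. It was found on either strand in 154 of 210 promoters of members (73.3%), in 83.2% of those of the other genes of the chromosome and in 76.5% of all protein-coding genes, a share in members near that of all genes. A longer CTCF consensus was also searched on both strands, and neither of these promoters held it. It was in 0 of 210 promoters of members, in 0.103% of those of the other genes of the chromosome and in 0.0569% of all. A match or its absence in 300 bases says only which letters are there. Both promoters were rich in G and C, at 59% in ZNF625 and 60.7% in ZNF136, near the median of members (60.2%), which was below that of the other genes of the chromosome (64%).

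**Figure D3:**
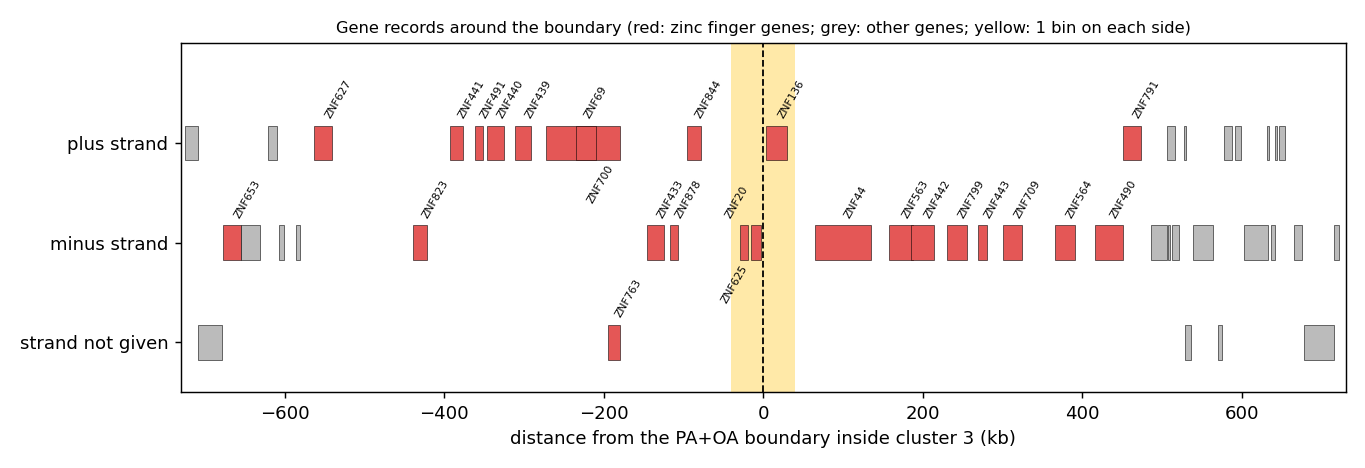
Gene records in kb from the PA+OA boundary at 12160000, by strand, with zinc finger genes in red, other genes in grey and 1 bin on each side in yellow. ZNF625 ends 3.27 kb before the line and ZNF136 begins 3.1 kb after it, and 8 of the 10 zinc finger genes to the right are on the minus strand.

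Around the centromere and on the proximal long arm, the mock list had its longest domain with members, and the PA+OA list divided it. In the mock list, 32 members shared a domain of 15840 kb from 24040001 to 39880000 among 191 genes. In the PA+OA list, 3 of them, ZNF254, ZNF536 and ZNF507, lay in 8920 kb from 24040001 to 32960000, and the 29 members of clusters 5 and 6 lay in 5280 kb from 34600001 to 39880000. The intervening PA+OA domains, of 800 and 840 kb, held no member. In both lists the domain that starts at 24040001 runs over the centromere, with no protein-coding gene for 5.08 Mb after ZNF254. How much of its length had reads is unknown. The boundary at 34600000 stood 76 kb before the record of ZNF302, the first gene of cluster 5, and 5280 kb from any mock boundary. In the mock list the nearest boundary before cluster 5 was 10636 kb away. Clusters 5 and 6 themselves stayed within 1 domain in either list. Cluster 6 includes ZNF568, whose mouse counterpart represses a placental Igf2 transcript, and ZNF146, a protein made almost wholly of fingers. Another mock domain with members was split at 46280000, 120 kb from its edge. Its 2 members, ZNF541 and ZNF114, stayed together, in 3400 kb in the PA+OA list and 3520 kb in the mock list.

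Cluster 4, the widest at 4406 kb between its outer middles, had the same boundary towards the centromere in both lists and a different one on the other side. Its 36 members from ZNF101 to ZNF726 lay in a PA+OA domain of 8960 kb from 15080001 to 24040000 and in a mock domain of 7520 kb from 16520001 to 24040000. That other edge was far from the genes, 4588 kb before ZNF101 in the PA+OA list and 3148 kb before it in the mock list. These 36 members thus shared a domain with each other in both. The edges at 15080000 and 16520000 were each found in 1 list only, and the lists do not show that 1 edge moved. Among them are ZNF91 and ZNF93, which encode repressors of SVA and LINE-1 retrotransposons, ZNF208 with a record of 71.1 kb and ZNF675. On the other side of these edges, ZNF333 lay alone among members in a domain of 960 kb in the PA+OA list and 2400 kb in the mock list.

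The last member of cluster 4, ZNF254, was set apart by its middle from the rest in both lists by the boundary at 24040000. This edge lay inside its record of 96.5 kb, and the middle and the listed start site, 41.7 and 47.2 kb beyond the edge, were on the far side. The record began at -6.55 kb relative to the edge, on the side of the other members of cluster 4, and placement by the start of the record put ZNF254 back in their domain in both lists. By its middle it was counted in the domain that runs over the centromere, where the next protein-coding gene, UQCRFS1, began 5.08 Mb further on. ZNF726, the nearest member on the near side, had its middle 110 kb from the boundary. The promoters of these neighbours are shown because they lie on the 2 sides of a shared boundary and are alike. Aligned over their length they had 77.5% identical bases, and capitals mark runs of at least 10 identical bases, 107 bases in all. Both genes are on the plus strand, at chr19:23914636-23914935 and chr19:24086937-24087236.
ZNF726: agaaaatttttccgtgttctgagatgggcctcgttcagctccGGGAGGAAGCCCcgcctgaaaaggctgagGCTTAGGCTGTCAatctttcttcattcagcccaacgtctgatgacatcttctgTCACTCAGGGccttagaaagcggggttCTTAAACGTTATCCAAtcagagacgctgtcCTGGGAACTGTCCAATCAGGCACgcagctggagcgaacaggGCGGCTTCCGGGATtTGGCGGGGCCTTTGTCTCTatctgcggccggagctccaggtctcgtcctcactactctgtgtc
ZNF254: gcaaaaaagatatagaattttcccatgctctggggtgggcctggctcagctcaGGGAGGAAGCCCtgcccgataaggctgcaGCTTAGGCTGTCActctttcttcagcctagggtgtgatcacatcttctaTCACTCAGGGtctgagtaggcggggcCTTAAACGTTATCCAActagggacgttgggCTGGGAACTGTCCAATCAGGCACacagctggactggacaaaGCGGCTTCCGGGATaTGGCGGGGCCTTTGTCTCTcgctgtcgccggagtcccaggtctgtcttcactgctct

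Likeness of this kind was found mainly within clusters, and most of all in cluster 4. Over all pairs of members with a promoter in different clusters, the median of identical bases was 46.8%, and 5 of 17422 pairs (0.0287%) reached 60%, a level set after the values were seen. Within clusters the median was 48.8%, and 412 of 2478 pairs (16.6%) reached 60%. Cluster 4 had a median of 75.2% and gave 303 of these 412 pairs. The closest pair was ZNF714 and ZNF431 with 91%, followed by ZNF486 and ZNF66 with 87.4%. In cluster 8 the highest was 86% in ZNF701 and ZNF845, and 54 of 496 pairs reached 60%. In cluster 3, 31 of 136 pairs within the same PA+OA domain (22.8%) and 7 of 140 pairs across the boundary at 12160000 (5%) did. These pairs share genes, and those within a domain are also nearer to each other. ZNF625 and ZNF136 had 48.5%. Clusters 6 and 9 had no pair at 60%, with highest values of 53.3% and 52.6%.

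**Figure D4:**
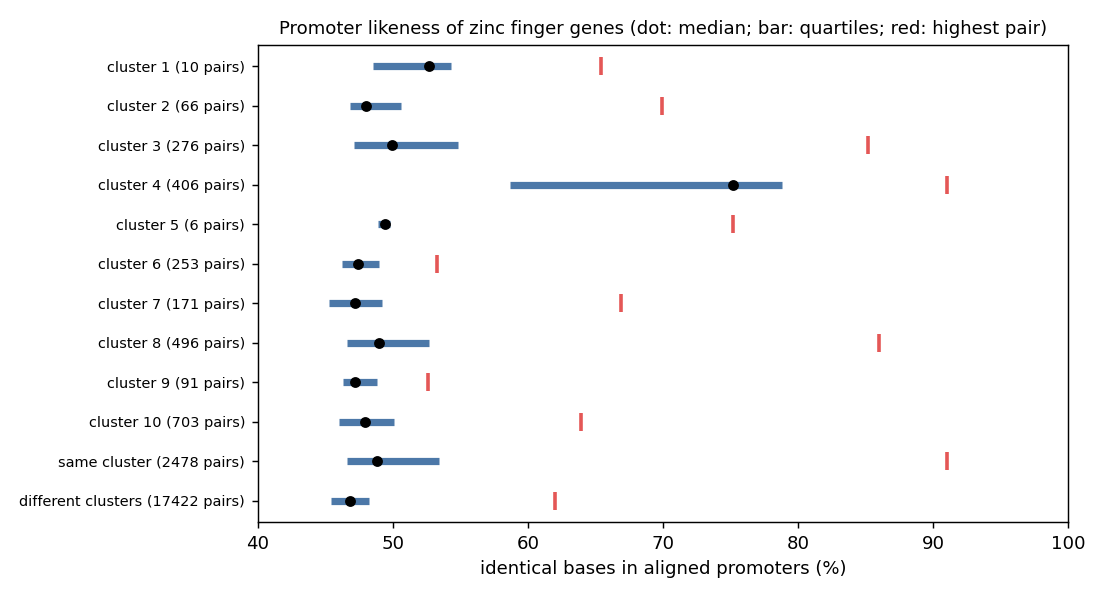
Identical bases, in percent of the alignment, over pairs of promoters of zinc finger genes, for each cluster, for all pairs in the same cluster and for pairs in different clusters. Dots are medians, bars run between the quartiles and red marks are the highest pair. Cluster 4 stands apart with a median of 75.2%, and pairs in different clusters have a median of 46.8%.

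The domain of cluster 7 was longer in the PA+OA list, which had no boundary near the mock boundary at 44840000. Its 23 members, with ZNF546, ZNF574 and ZNF526 before them, lay in a PA+OA domain of 6280 kb from 39880001 to 46160000 and in a mock domain of 4960 kb that ended there. That mock boundary stood 353 kb beyond the middle of ZNF180, the last gene of the cluster, and 234 kb before that of ZNF296, which had a mock domain of 1320 kb. ZNF180 and ZNF296 were the only neighbouring members that the mock list set apart and the PA+OA list did not. Cluster 7 holds ZNF224, which encodes a KRAB repressor of the aldolase A gene.

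Most boundaries of each list on this chromosome were also found in the other list. The PA+OA list had 25 boundaries, 17 of them shared (68%, Wilson 95% interval 48.4 to 82.8%, counting error only), and the mock list had 20, 17 of them shared (85%, 64 to 94.8%). All 17 were in the identical bin. They include the first and last edge of the lists, at 0 and 58240000, where both lists begin and end. With these left out, 65.2% of PA+OA and 83.3% of mock boundaries were shared. No share over all chromosomes is given beside these values, so whether such sharing is usual for these lists is unknown. Of the 8 boundaries only in the PA+OA list and 3 only in the mock list, those with a member within 100 kb were 12160000 and 34600000, both of the PA+OA list. Within 100 kb of such a boundary lay 6 of 240 members (2.5%), namely ZNF625, ZNF136, ZNF20, ZNF844, ZNF44 and ZNF302, against 4.13% of the other genes of the chromosome and 10.4% of all protein-coding genes. Counting boundaries of either list, 17 members (7.08%) were that near, against 12.1% of the other genes and 28.4% of all. The last edge of both lists counted as a boundary here, with ZNF329, ZNF274, ZNF544 and ZNF8 within 100 kb of it. The median distance to a boundary was 682 kb for members, 583 kb for the other genes of the chromosome and 236 kb for all genes.

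Neighbouring members mostly lay in the same domain. The number of neighbouring pairs set apart follows from the number of domains that hold the genes, 13 for members in the PA+OA list and 11 in the mock list. A sparser set of genes therefore has a higher share of neighbouring pairs set apart, and those shares describe no trait of members. No test was run. Of 231 pairs of placed neighbours, 12 were set apart in the PA+OA list (5.19%) and 10 in the mock list (4.33%), with 9 pairs in common. Over all 1430 pairs of neighbouring placed genes of chromosome 19, members included, these shares were 1.61% and 1.26%. Of the 13 pairs set apart in either list, 10 were not of the same cluster and stood 587 kb or more apart. The remaining 3 were ZNF625 and ZNF136 in the PA+OA list, and ZNF726 and ZNF254 and ZNF417 and ZNF418 in both lists. In all, 7 of the 10 clusters lay whole in 1 domain in each list. Over all 26796 pairs of placed members, 3354 shared a domain in the PA+OA list (12.5%) and 3940 in the mock list (14.7%), and 3328 did so in both. Over all pairs of placed genes of the chromosome, 7.82% shared a domain in the PA+OA list and 8.85% in the mock list. The shares over all pairs depend on how unevenly genes are spread over the domains, and their difference was not tested.

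Members lay in long domains, as did the other genes of the chromosome. In the PA+OA list the median domain at a member was 4080 kb (quartiles 2840 and 6280 kb), with 4080 kb at the other genes of chromosome 19 and 1560 kb at all genes. In the mock list it was 4960 kb (quartiles 3940 and 7960 kb), with 4080 and 1480 kb in the same comparison. Domains longer than 3 Mb held 152 members (65.5%) in the PA+OA list and 176 (75.9%) in the mock list. For the other genes of the chromosome these shares were 62.1% and 63.6%, and for all genes 30.1% and 23.5%. ZNF genes of other chromosomes, 220 of 237 placed, lay in domains with medians of 1680 kb in the PA+OA list and 1440 kb in the mock list. On chromosome 19 itself, domains with members had a median of 3400 kb in the PA+OA list, where the 11 without members had 800 kb, and 3520 kb in the mock list, where the 8 without had 660 kb. A longer domain has room for more genes of any kind, but the number of genes did not follow length throughout. The PA+OA domain of 8920 kb held 19 genes and that of 1000 kb held 74. Whether length accounts for the difference was not tested.

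Domain length at members moved both ways between the lists. It was shorter in the PA+OA list for 75 members (32.3%), longer for 63 (27.2%) and equal for 94 (40.5%). Of the other genes of the chromosome, 43.5% were in a shorter, 30.2% in a longer and 26.4% in an equal domain, and of all genes 29.3%, 36.2% and 34%. Of ZNF genes of other chromosomes, 37.7%, 25% and 35.9% were. By class, 40.5% of members were in kept mock domains, against 26.4% of the other genes of chromosome 19, 41.1% of all genes and 42.3% of ZNF genes of other chromosomes. The members and the other genes of chromosome 19 share their domains, so these shares are a description and were not tested. Counted by domain, 4 of the 11 mock domains with members were kept, 3 split, 2 joined and 2 shifted, and of the 8 without members 5 were kept, 1 was split and 2 were joined.

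**Figure D5:**
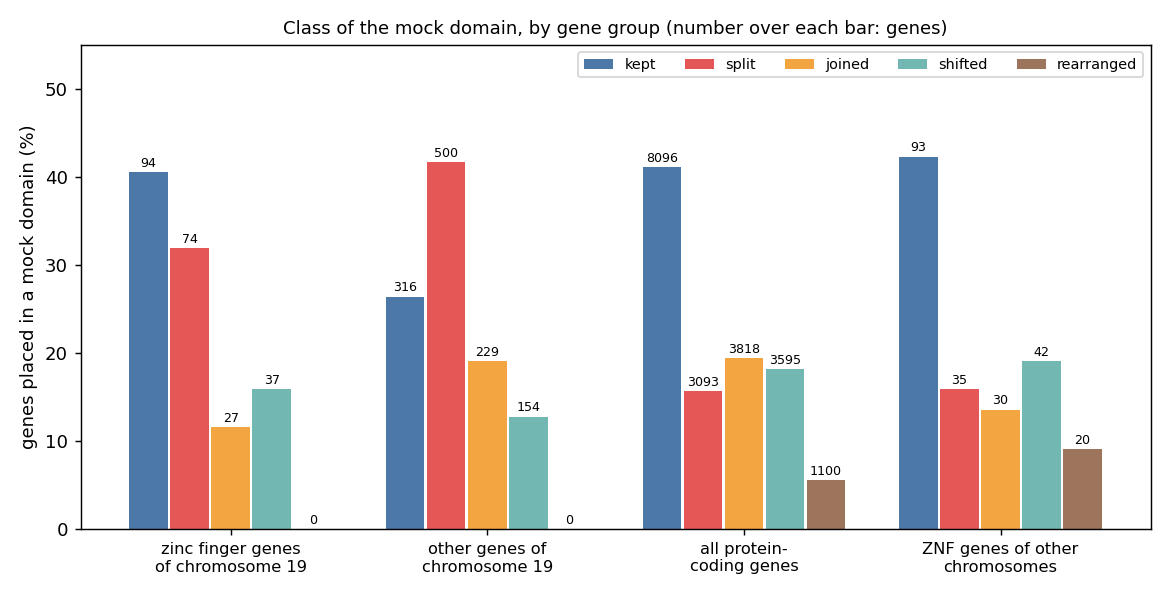
Share of genes, in percent of those placed in a mock domain, by the class of that domain, for the zinc finger genes of chromosome 19, its other genes, all protein-coding genes and ZNF genes of other chromosomes, with the number of genes over each bar. Kept domains hold 40.5% of the zinc finger genes and 26.4% of the other genes of the chromosome.

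The partners of zinc finger repression were placed in the same way. Of 14 genes of the corepressor pathway, 5 lay in kept mock domains, 3 in split, 3 in joined and 2 in shifted ones, and TRIM28 lay beyond the last domain of both lists, near the end of cluster 10. SETDB1 on chromosome 1, in 800 kb, and CBX5, the gene of heterochromatin protein HP1 alpha on chromosome 12, in 1160 kb, had the same domain in both lists. UHRF1, which guides maintenance of DNA methylation, lay on chromosome 19 in 1760 kb in both lists, in a domain with no member. DNMT1, the maintenance DNA methyltransferase, lay in the PA+OA domain of 2200 kb with 15 members and in the mock domain of 7960 kb with 40. Among the genes whose domains differed were TASOR and MPHOSPH8, which encode subunits of the HUSH silencing complex. Of all protein-coding genes, 58.9% lay in a mock domain that was not kept. TASOR lay in 920 kb in the PA+OA list and 3160 kb in the mock list, and MPHOSPH8 lay in 27360 kb in the PA+OA list and 3120 kb in the mock list. That PA+OA domain began at the first base of chromosome 13, and how much of its length had reads is unknown. On chromosome 19, 19 genes with other symbols of zinc finger type included 12 within the clusters. Kept domains held 12 of the 19, among them the imprinted PEG3 and ZIM2 beside cluster 9, split mock domains held 5, among them ZFP14, ZFP82 and ZFP30 of cluster 6, and 2 lay beyond the last domain. Of 9 ZNF symbols with a suffix, 3 were in kept, 3 in split and 2 in joined mock domains, and 1 was beyond. Beside both sets, the non-member genes of chromosome 19 had 26.4% in kept, 41.7% in split and 19.1% in joined mock domains.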

How the data were processed

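Each library is represented by 1 list of domains, with chromosome, start and end positions in base pairs as the authors deposited them. The build hg38 and the tools FastQC and HiC-Pro stand in the submitters' processing notes. Domain caller, matrix normalization and depth were not given in the sources used here, so the precision of a boundary is unknown. All deposited edges are multiples of 40 kb, and starts are printed 1-based.

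Genes, strands and promoters came from RefSeq tables of GRCh38.p14, the same assembly, and 210 of 240 members had a promoter. Of several start sites in the promoter table, the outermost was used, which can lie inside the gene record, as in ZNF254. Members were placed by the record's middle, in a domain from start to end. Edges within 1 bin were merged, and boundaries within 1 bin of each other were shared. Promoters were aligned globally with Biopython 1.88, and other steps used Python 3.11.15. Classes were tested on simulated domains. Genes in 1 domain are not independent, and no test was run.

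Named genes were the ends of clusters, members nearest to a boundary within 500 kb or spanning one, members in no cluster, those named by the corepressor list, and others chosen after their values were seen. The plan to count fingers was not carried out, since no protein table was used here, and promoters, chosen later, were shown instead of proteins. The members and lists were chosen with earlier results of these data known.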

Additional observations from a re-analysis of the deposited data

How the results depend on the processing

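Of 108 values under other settings, 99 stayed within 1.5 times the reported count or median, or within the Wilson interval of the share of shared boundaries. Many of these values could not change, so their number is no measure of robustness. Neither list has a zero-length domain on this chromosome to leave out. Leaving out a cluster cannot alter the count of a class in which it has no member. Tolerances of 0, 2 and 3 bins, placement by the start or the end of the record, and added zinc finger symbols changed no class count by more than that. Single clusters carried the class counts. Without cluster 8 (ZNF175 to ZNF331) 55 members were in kept domains and without cluster 10 (ZNF264 to ZNF446) 61, in place of 94. Without cluster 3 (ZNF653 to ZNF791) 49 were in split domains and without cluster 6 (ZNF565 to ZNF573) 50, in place of 74. Without cluster 4 (ZNF101 to ZNF254) 1 was in a shifted domain, in place of 37, and without cluster 7 (ZNF575 to ZNF180) 4 were in joined domains, in place of 27. With windows of 50 and 200 kb, 10 and 36 members were near a boundary of either list, in place of 17, and 3 and 14 near a boundary of 1 list only, in place of 6, as the width of the window sets. A tolerance of 3 bins made 46280000 a shared boundary. Clusters numbered 12 with a gap of 250 kb and 9 with a gap of 1000 kb. The alternative patterns for fingers were not run, since no proteins were used. No paired analysis was possible because each group has 1 library. Depth is unknown and bounds no value.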

Other observations

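The number of zinc finger genes in the same domain differed between the lists at 5 genes active in liver, which were chosen after the data were seen and stand for no group. Of the other genes of chromosome 19, 73.6% lay in a mock domain that was not kept. INSR, the insulin receptor gene, lay in 4920 kb with 15 zinc finger genes, from ZNF557 to ZNF846, in the PA+OA list and in the mock domain of 7960 kb with 40. CEBPA, a liver transcription factor gene, lay in a PA+OA domain of 800 kb with 0 zinc finger genes and in the mock domain of 15840 kb with 32. HAMP, which encodes hepcidin, lay with 29 of them in 5280 kb in the PA+OA list and with 32 in the mock domain of 15840 kb. The apolipoprotein genes APOE and APOC2 lay in 6280 kb with 27 zinc finger genes in the PA+OA list and in 1320 kb with ZNF296 alone in the mock list.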
